A study of Mus musculus with 2 samples.

Results

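Acetylcholine is the transmitter with which motor neurons of the spinal cord drive skeletal muscle. The 6 genes described here serve its cycle and the identity of the neurons that use it. Chat, Slc18a3, Slc5a7 and Ache make acetylcholine, load it into vesicles, recover choline from the synapse and break the transmitter down, and Isl1 and Mnx1 are homeodomain transcription factors of motor neurons. The genes were chosen by Ensembl identifier, by a rule that holds no measured value, but were proposed with earlier results of these data known. They were looked up among the 12530 mouse genes of the tables. They are Chat (ENSMUSG00000021919), Slc18a3 (ENSMUSG00000100241), Slc5a7 (ENSMUSG00000023945), Ache (ENSMUSG00000023328), Isl1 (ENSMUSG00000042258) and Mnx1 (ENSMUSG00000001566). Of the 6 identifiers, 5 were listed in both tables and that of Slc18a3 was not listed in either.

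Ribosome-protected fragments, the stretches of mRNA that a translating ribosome shields from nuclease, were sequenced from spinal cord of mice that carry the missense change C201R in 1 Gars allele (Gars C201R/+, called heterozygous here) and of wild-type mice. Gars encodes glycyl-tRNA synthetase, which attaches glycine to its tRNAs, and dominant mutations of the gene cause a peripheral neuropathy of motor and sensory axons. Each genotype had 1 library, made from the combined lysates of 3 animals, so the tables hold no variation between animals. The heterozygous library held 3491159 gene reads and the wild-type library 7770935, and the labels give no strain, age or sex. The animals' own difference was therefore not measured, no p-value between genotypes was computed, and each interval below covers counting error only. Differences between the libraries were scaled over the gene reads with TMM, an edgeR method that balances 2 libraries over most genes, and are not absolute amounts.

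In motor neurons choline acetyltransferase (Chat) joins choline and acetyl-CoA, and the vesicular transporter Slc18a3 (also called VAChT) packs the product. Acetylcholinesterase (Ache) splits released acetylcholine, and the high-affinity choline transporter Slc5a7 (also called CHT1) carries the freed choline back into the terminal. In the mouse embryo Isl1 acts with Lhx3 to switch on cholinergic genes in motor neurons, and Mnx1 (also called HB9) holds motor neuron identity against that of interneurons. Not all of these genes mark motor neurons alone: for example, Ache is made by many neurons, and Isl1 also by sensory neurons and some dorsal interneurons. Chat and Slc5a7 are taken below as markers of cholinergic neurons, not of motor neurons alone.

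Slc18a3 and Chat share 1 locus on chromosome 14. In RefSeq's annotation of the mouse build GRCm38.p6, Chat spans chr14:32408203-32465909 on the minus strand, 57707 nt in all. Slc18a3 spans chr14:32462437-32464850, which is 2414 nt, and lies wholly inside Chat. Its start is 1059 nt downstream of the start of Chat and its end 3472 nt downstream. The other members stand apart, with Slc5a7 at chr17:54273590-54299038, Ache at chr5:137288247-137294466, Isl1 at chr13:116298270-116309688 and Mnx1 at chr5:29473823-29478470.

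**Figure D1:**
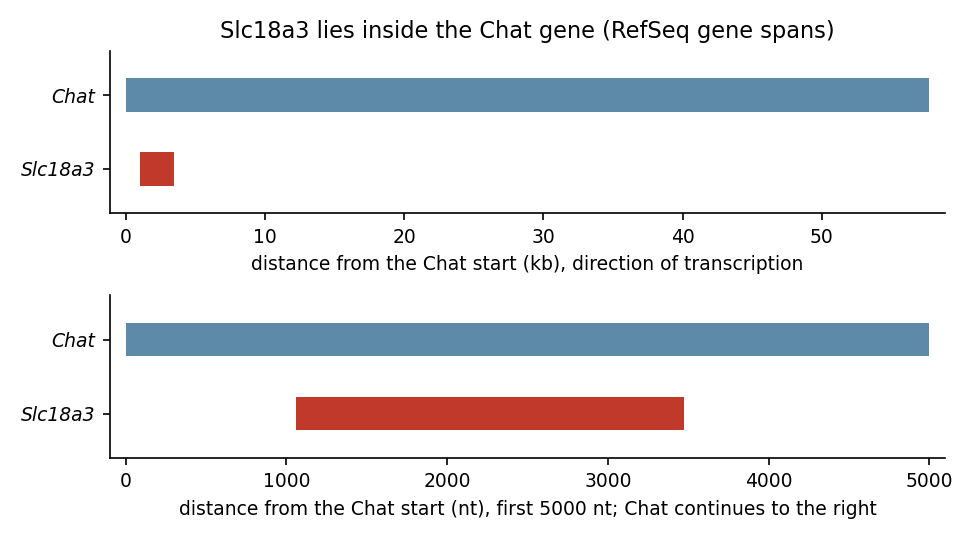
Spans of Chat and Slc18a3 in RefSeq, drawn along the distance from the Chat start in the direction of transcription, over the whole of Chat in kb (top) and over its first 5000 nt (bottom). Bars are gene spans with exons and introns together, and Slc18a3 occupies the stretch from 1059 to 3472 nt.

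The starts of the acetylcholine genes are shown because the 3 that were listed each had a lower level in the heterozygous library. A further reason is that the start of the unlisted Slc18a3 lies within Chat. Isl1 and Mnx1 also had lower levels, on few reads, and their starts are counted below but not shown. Whether the letters at a start bear on the level of its gene was not tested. Each line gives the 250 bases before a RefSeq transcript start, 5′ to 3′ on the strand of the gene. For Ache and Slc5a7 that start lies a few bases inside the gene span given above, so the end of the window overlaps the span. Capitals mark matches on either strand to TAAT, the core letters bound by many homeodomain proteins, to TGACG, a partial cAMP response element, and to GGGCGG, a GC box. On the opposite strand these read ATTA, CGTCA and CCGCCC. The windows are chr14:32465910-32466159 for Chat, chr14:32464851-32465100 for Slc18a3 and chr17:54299035-54299284 for Slc5a7, all on the minus strand, and chr5:137288004-137288253 on the plus strand for Ache.
Chat: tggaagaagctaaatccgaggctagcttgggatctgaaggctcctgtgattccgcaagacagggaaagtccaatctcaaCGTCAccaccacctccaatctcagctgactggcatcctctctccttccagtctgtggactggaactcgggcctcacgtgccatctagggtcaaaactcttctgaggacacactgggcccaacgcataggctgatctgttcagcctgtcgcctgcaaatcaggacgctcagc
Slc18a3: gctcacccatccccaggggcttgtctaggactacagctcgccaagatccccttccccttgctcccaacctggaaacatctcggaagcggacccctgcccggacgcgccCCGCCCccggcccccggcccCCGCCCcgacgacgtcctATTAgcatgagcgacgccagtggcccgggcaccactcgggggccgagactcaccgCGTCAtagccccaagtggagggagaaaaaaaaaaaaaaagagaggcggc
Slc5a7: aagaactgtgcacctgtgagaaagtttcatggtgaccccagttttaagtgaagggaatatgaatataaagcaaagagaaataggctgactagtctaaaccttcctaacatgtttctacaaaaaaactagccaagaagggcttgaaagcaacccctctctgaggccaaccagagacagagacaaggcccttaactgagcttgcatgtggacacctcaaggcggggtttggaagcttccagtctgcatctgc
Ache: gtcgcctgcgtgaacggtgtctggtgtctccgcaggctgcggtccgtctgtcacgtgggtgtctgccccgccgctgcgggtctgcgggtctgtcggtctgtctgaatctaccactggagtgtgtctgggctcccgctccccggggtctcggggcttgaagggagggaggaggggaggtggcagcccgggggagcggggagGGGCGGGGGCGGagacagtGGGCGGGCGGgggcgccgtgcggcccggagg

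The 4 windows differed widely in composition. G and C made up 73.6% of the Ache window, 66% of the Slc18a3 window, 54.8% of the Chat window and 45.6% of the Slc5a7 window, against a median of 52.4% over the 32851 RefSeq windows of the same length. The Ache window held 4 matches to GGGCGG, of which the nearest pair overlap, and none to the other motifs. Chat had 1 match to TGACG and Slc5a7 had none of the 3 motifs. Slc18a3 had 1 match to TAAT, 1 to TGACG and 2 to GGGCGG. Among all 6 members, whose windows also include those of Isl1 and Mnx1, 3 held TAAT, 3 held TGACG and 3 held GGGCGG. Over all windows the shares were 54.9% for TAAT, 17.8% for TGACG and 32.7% for GGGCGG. A match describes letters and is not a measured binding site.

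Within each library the members fell into 3 tiers of ribosome-protected fragments per length. Values are RPKM, the authors' reads scaled to gene length and library size, with exact 95% Poisson intervals. The intervals do not cover the choice of gene length, and levels over the translated part alone were not computed. Ache was far above the others, with 188 RPKM (178 to 198) in the heterozygous and 207 RPKM (200.3 to 214) in the wild-type library. Its level exceeded that of 97.6% of listed genes in the heterozygous library and 97.8% in the wild-type library.

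The middle tier held the enzyme that makes acetylcholine and the transporter that supplies its choline. Chat had 19.2 RPKM (16.6 to 22.1) in the heterozygous library and 25.4 RPKM (23.3 to 27.6) in the wild-type library. Slc5a7 had 17.3 RPKM (15.5 to 19.3) in the heterozygous library and 25.6 RPKM (24.0 to 27.2) in the wild-type library. Chat stood above Slc5a7 in the heterozygous library and just below it in the wild-type library, and their intervals overlapped in each. Per length, Chat was at 1.11 times (95% interval 0.921 to 1.33) the level of Slc5a7 in the heterozygous and 0.992 times (0.894 to 1.10) in the wild-type library. At the gene lengths behind RPKM, the order of this pair was within counting error in both. Those lengths were 2858 nt for Chat and 5180 nt for Slc5a7. The order over the translated part of each gene was not computed and may differ.

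The transcription factors were at the bottom. Mnx1 had 1.77 RPKM (0.968 to 2.97) in the heterozygous library and 2.63 RPKM (1.93 to 3.51) in the wild-type library. Isl1 had 1.13 RPKM (0.541 to 2.08) in the heterozygous library and 1.73 RPKM (1.2 to 2.42) in the wild-type library. Their intervals also overlapped in each library, so their order was not resolved. Only 7.32% of listed genes were below Isl1 in the heterozygous library and 14.4% in the wild-type library. Below Mnx1 were 13.7% of listed genes in the heterozygous library and 21.3% in the wild-type library.

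Slc18a3 has no value in either table. The lowest RPKM of any listed gene was 0.501 in the heterozygous library and 0.183 in the wild-type library. For a gene as long as the Slc18a3 span these levels would be 4.26 reads in the heterozygous and 3.44 reads in the wild-type library. Why Slc18a3 is not listed was not tested. The sources used here do not say how reads in the span it shares with Chat were assigned, so Chat reads free of Slc18a3 reads could not be told apart. The labelled tissue is spinal cord, and Chat and Slc5a7, defining markers of cholinergic neurons, had reads in both libraries. Markers of other cell types were not analysed here, because the reference table pairs no symbol with an Ensembl identifier. The other cholinergic and motor neuron genes were not analysed for the same reason.

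**Figure D2:**
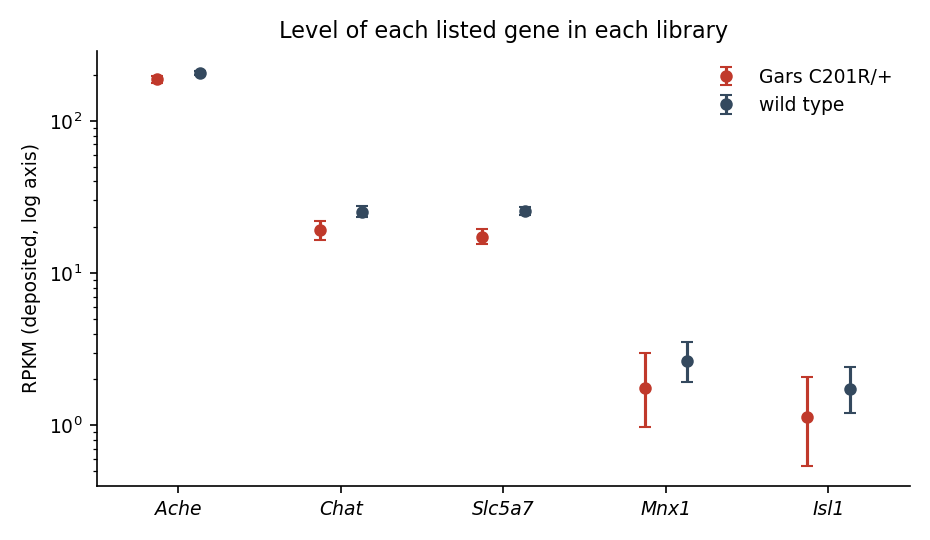
Deposited RPKM of the 5 listed genes on a log axis, in the Gars C201R/+ library (left of each pair, red) and the wild-type library (right, dark), with exact 95% Poisson intervals. Ache stands at 188 RPKM in the heterozygous and 207 RPKM in the wild-type library, Chat and Slc5a7 between 17.3 and 25.6, and Mnx1 and Isl1 between 1.13 and 2.63, and each gene is lower in the heterozygous library.

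Every listed member had a lower level in the heterozygous library than in the wild-type library after TMM scaling. Slc5a7 was lower by 34.3%, Chat by 26.7% and Ache by 12.1%. Isl1 and Mnx1 were lower by 36.2% and 34.2%, on few reads. For the first 3 genes the interval lay below equal levels, and for the transcription factors it included them. A call needed at least 100 reads over both libraries, a ratio of 1.5-fold or more and an interval off equal levels. By that rule 1 member, Slc5a7, was called lower and 0 were called higher, where the same rule called 11.2% of the 9726 tested genes lower and 8.14% higher. With 3 members past the read minimum, 1 call says little against these shares. The interval lay below equal levels, whatever the fold, for 28.2% of the tested genes.

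The choline transporter Slc5a7 showed the clearest difference. Its reads numbered 316 (exact 95% interval 282 to 353) in the heterozygous library and 1032 (969.99 to 1097) in the wild-type library. At the effective depth of the heterozygous library, the wild-type level corresponds to 481 reads. The log2 ratio, heterozygous over wild type, was -0.61 (95% counting interval -0.79 to -0.42). It passed the 1.5-fold limit, a log2 ratio of 0.585 in either direction, by a narrow margin. Scaling to total gene reads gave -0.55, upper-quartile scaling -0.57 and the deposited RPKM values -0.56, each of which ended the call.

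Genes with read numbers like those of Slc5a7 show the whole spread of ratios between the libraries, counting error and any other differences together. Among the 1253 genes with 949 to 1747 reads, the median log2 ratio was -0.05, and the 5th and 95th percentiles were -0.64 and 0.55. Slc5a7 lay inside that range, near its lower end, with 75 of these genes (5.99%) at a lower ratio. Over all tested genes, 10.6% were at a lower ratio than Slc5a7.

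Chat, the enzyme of acetylcholine synthesis, differed less. It had 193 reads (167 to 222) in the heterozygous library and 565 reads (519 to 614) in the wild-type library, which corresponds to 263 reads at the heterozygous depth. Its log2 ratio was -0.45 (-0.69 to -0.21). The ratio was below the 1.5-fold limit, so Chat was not called. Of the 1253 genes with 623 to 948 reads, 15.9% had a lower ratio than Chat, and the 5th to 95th percentile range was -0.73 to 0.54.

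Ache had the most reads and the smallest difference. Its 1446 reads (1372 to 1523) in the heterozygous library stand against 3526 reads (3411 to 3644) in the wild-type library, or 1644 at the heterozygous depth. The log2 ratio was -0.19 (-0.27 to -0.10). That interval excluded equal levels, but 36.2% of the 1253 genes with 1748 or more reads had a lower ratio. The difference of Ache was thus small beside the spread of well covered genes, whose 5th and 95th percentiles were -0.62 and 0.44.

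Isl1 and Mnx1 fell under the read minimum. Isl1 had 10 reads (4.80 to 18.4) in the heterozygous library and 34 reads (23.5 to 47.5) in the wild-type library, a log2 ratio of -0.65 (-1.85 to 0.38). Mnx1 had 14 reads (7.65 to 23.5) in the heterozygous library and 46 reads (33.7 to 61.4) in the wild-type library, a log2 ratio of -0.60 (-1.59 to 0.27). Summed, these factors had 24 reads (15.4 to 35.7) in the heterozygous library and 80 reads (63.4 to 99.6) in the wild-type library. The log2 ratio of the sum was -0.63 (-1.36 to 0.04), which did not exclude equal levels, so a difference was not detectable at this depth. When the wild-type library was thinned to the heterozygous total in a single random draw, Isl1 kept 11 wild-type reads and its log2 ratio was -0.18. At the effective depth of the heterozygous library, the wild-type level of Isl1 corresponds to 15.9 reads, so the draw fell below that number.

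Genes as weakly covered as these leaned the other way. In the 1253 genes with 2 to 46 reads, which include Isl1, the median log2 ratio was 0.50, with a 5th percentile of -1.08 and a 95th of 2.10. In the 1253 genes with 46 to 88 reads, which include Mnx1, the median was 0.10, with a 5th percentile of -1.37 and a 95th of 1.41. Isl1 lay above 11.6% and Mnx1 above 21.9% of the genes in their groups. The tables list no gene below 0.501 RPKM in the heterozygous library, and the part of this limit in those medians was not tested here.

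**Figure D3:**
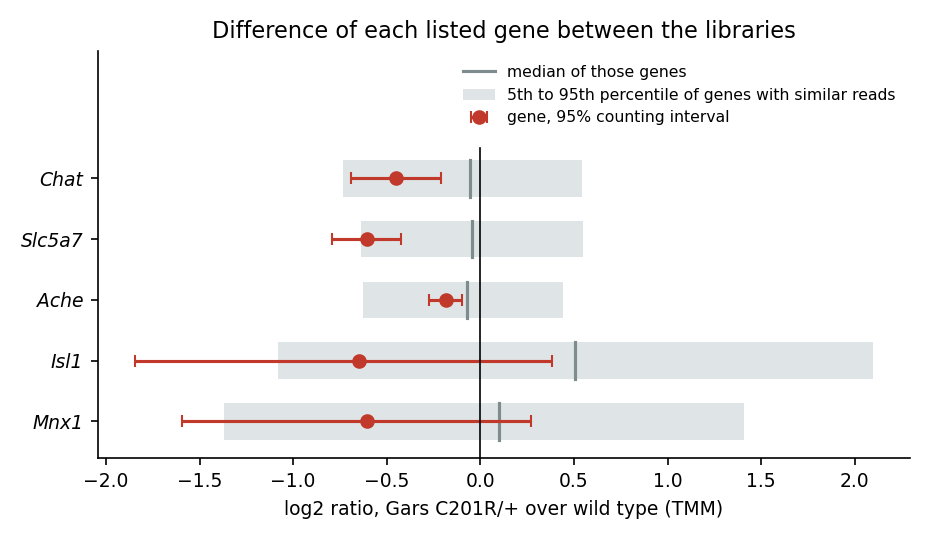
Log2 ratio of the Gars C201R/+ over the wild-type library (TMM scaling) for the 5 listed genes, as red points with 95% counting intervals. Grey bars run from the 5th to the 95th percentile of the genes with similar read numbers and grey lines mark their medians. All 5 points lie left of 0 and inside their grey bars, from -0.65 for Isl1 to -0.19 for Ache.

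The median log2 ratio of the 5 listed members was -0.60, and that of all listed genes was 0.0018. That member median is the ratio of Mnx1, a gene under the read minimum whose interval included equal levels. Over the 3 members past the minimum the median was -0.45, against -0.03 over all tested genes. Of all listed genes 49.8% had a ratio below 0, as did 5 of the 5 members. The members were proposed with results of these data known, so their common direction is a description of this list. Spinal cord tissue is a mixture of cells: fewer cholinergic neurons in the tissue, less mRNA per neuron and less translation per mRNA cannot be told apart with these libraries. With 1 library per genotype, differences between animals or between library preparations cannot be told apart from these either.

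**Figure D4:**
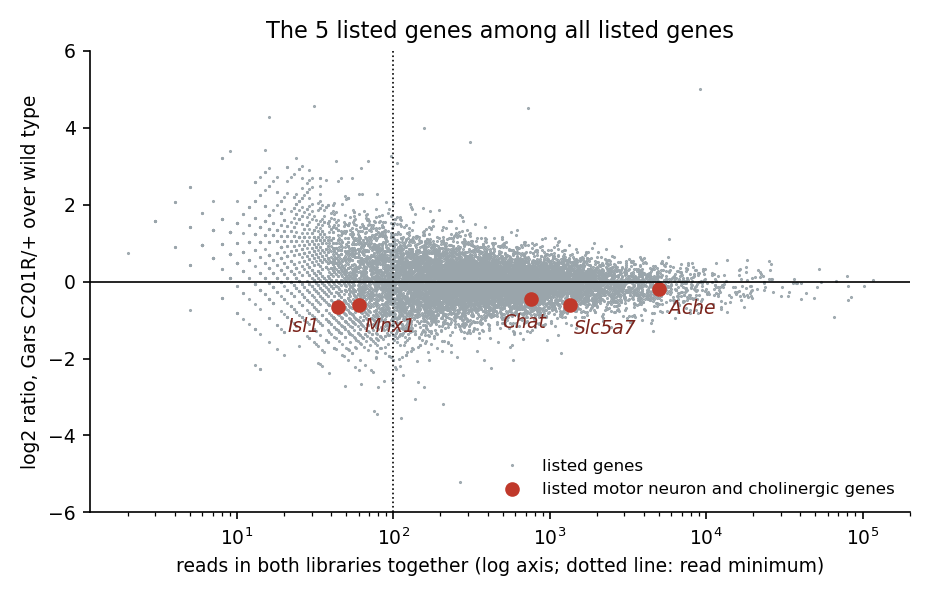
Log2 ratio of the Gars C201R/+ over the wild-type library against the reads of both libraries together (log axis) for the 12530 listed genes (grey) and the 5 listed members (red, labelled). The dotted line is the minimum of 100 reads. The members lie below 0 and within the cloud of other genes, with Isl1 and Mnx1 left of the minimum.

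Ratios between members of the same library do not depend on how the libraries were scaled to each other. They do depend on the gene lengths used, which cancel when the heterozygous ratio is divided by the wild-type ratio. Slc5a7 was at 0.0922 times (95% interval 0.0814 to 0.104) the level of Ache per length in the heterozygous library and 0.124 times (0.115 to 0.132) in the wild-type library. The ratio in the heterozygous library was 0.747 times that in the wild-type library (0.647 to 0.860). Choline uptake transporter reads were thus lower relative to acetylcholinesterase reads, by more than counting error. The interval leaves out the further spread of genes between these libraries. Each gene alone lay inside the 5th to 95th percentile range of genes with similar reads. That range of log2 ratios was -0.64 to 0.55 for Slc5a7 and -0.62 to 0.44 for Ache. How the quotient stands against that spread was not tested.

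Chat relative to Ache moved in the same direction by less. It was at 0.102 times (0.0874 to 0.119) the level of Ache in the heterozygous library and 0.123 times (0.112 to 0.134) in the wild-type library. The quotient was 0.833 (0.696 to 0.994). Between Chat and Slc5a7 the quotient was 1.12 (0.902 to 1.38), so a differing change of synthesis enzyme and choline transporter was not detectable. Between Isl1 and Mnx1 it was 0.967, with a wide interval of 0.340 to 2.67.

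Among the 10 pairs of listed members, 2 had a quotient whose 95% interval excluded 1, and both involve Ache. With intervals widened to 99.5% to allow for 10 pairs, 1 remained, Slc5a7 against Ache (0.608 to 0.913). The wider intervals also cover counting error only. The same widening took the interval of Chat against Ache to 0.644 to 1.07. Pairs with Isl1 or Mnx1 have intervals too wide to show a difference of the size seen for Slc5a7 against Ache.

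**Figure D5:**
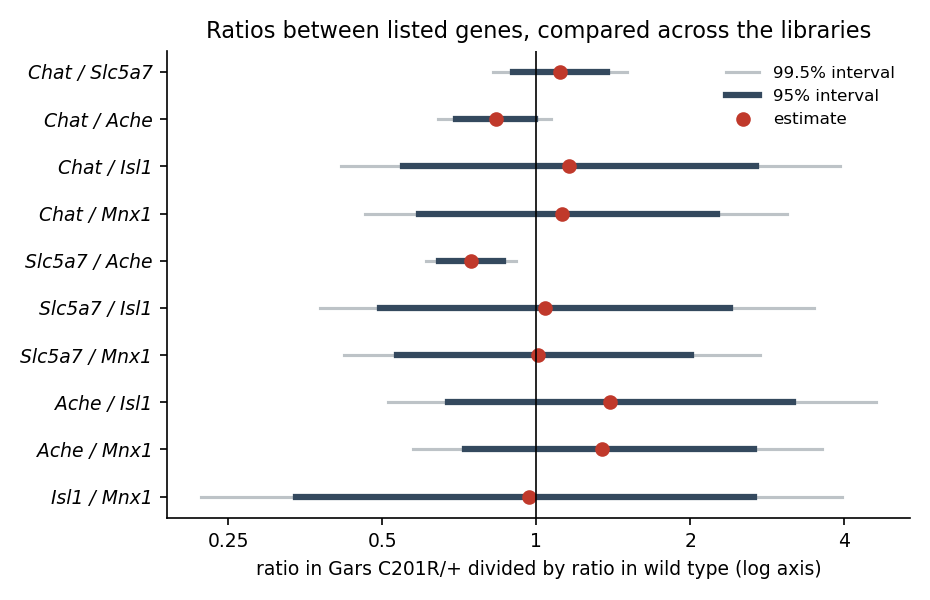
For each of the 10 pairs of listed genes, the ratio of the first to the second gene in the Gars C201R/+ library divided by the same ratio in the wild-type library (log axis), with 95% (dark) and 99.5% (grey) exact counting intervals. Slc5a7 against Ache, at 0.747, is the pair whose 99.5% interval lies off 1.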

How the data were processed

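Ribosome-protected fragments of spinal cord were measured in 1 Gars C201R/+ and 1 wild-type library, each from pooled lysates of 3 animals, per the labels' protocols. The submitters' processing notes name Bowtie 1.2.2, HTSeq 0.9.1 and GRCm38. The sources used here do not give settings, annotation release, strand or the counted part of the gene. The deposited columns are, per the file headers, raw read counts and RPKM per gene, and the counts were used unchanged. The deposited RPKM values correspond to library totals of 3520348 reads in the heterozygous and 7790126 reads in the wild-type library, at which every gene length came out whole within 0.0001 nt. Lengths of the members were 2858 nt for Chat, 5180 nt for Slc5a7, 2186 nt for Ache, 2516 nt for Isl1 and 2245 nt for Mnx1. Reads shared with overlapping genes could not be told apart.

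Counts of the 12530 genes, without the 18 ERCC spike-ins, were scaled by TMM in edgeR 4.0.16 under R 4.3.3. Log2 ratios used a prior count of 0.5, and intervals are exact conditional binomial at 95%. Reads may not be independent molecules, which intervals do not allow for. No model or test between genotypes was fitted, as 1 library each leaves no residual degrees of freedom. To describe spread, the listed genes were ordered by reads and cut into 10 groups of equal size. The call rule was tested on simulated counts that varied by counting error only. That simulation therefore does not cover the further spread between the libraries. Alternatives were other scalings including DESeq2 1.42.0, read minimums, fold limits, interval width, prior count and thinning. All 6 members were to be named, with called genes of 2 further lists (26 cholinergic and 24 motor neuron symbols). The reference table pairs 0 symbols with Ensembl identifiers, so those lists, other cell type markers and Gars were not analysed here. Symbols of the members came with the list of identifiers. The members and lists were chosen with earlier results of these data known. Promoter sequences are from RefSeq on GRCm38.p6, matched by symbol for 6 of 6 members. Intervals were computed in scipy 1.17.1 and plots drawn in matplotlib 3.10.9, under Python 3.11.15.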

Additional observations from a re-analysis of the deposited data

Results flagged for a closer look

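The ERCC spike-ins, synthetic RNAs outside the mouse genes, made up 0.65% of the listed reads in the heterozygous library and 0.00669% in the wild-type library. They took no part in the scaling, and their part in the members' ratios was not tested.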

How the results depend on the processing

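The direction of each of the 5 listed members was the same under 7 alternatives that could change a ratio (4 other scalings, scaling without genes over 1% of the reads, a prior count of 2, and thinning). Log2 ratios ranged from -0.61 to -0.55 for Slc5a7, -0.48 to -0.39 for Chat, -0.19 to -0.13 for Ache, -0.65 to -0.18 for Isl1 and -0.61 to -0.55 for Mnx1. The value of -0.18 for Isl1 came from the single thinning draw. The members' median lay between -0.61 and -0.48. These scalings shift all genes by 1 common amount, so they are no independent check. The number of members called lower was 0 under total-count, upper-quartile and RPKM scaling and under a 2-fold limit, against 1 in the main setting and in each other setting in which calls were counted (calls were not counted with a prior count of 2). Over all genes, 1321 were called higher with a minimum of 20 reads, 1379 with none, 158 with a minimum of 500 and 166 under the 2-fold limit, against 792 in the main setting. Those called lower were 348 with a minimum of 500 and 267 under the 2-fold limit, against 1087. Fewer or more genes enter under other minimums by construction. RPKM recomputed over listed reads moved no member's level beyond its Poisson interval. Depth limits Isl1 and Mnx1 most, with 10 and 14 heterozygous reads. No paired analysis was possible because there is 1 library per genotype, and no replicate could be left out.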
